A study of Mus musculus with 16 samples.

Results

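Messenger RNA of 10 genes was followed here, out of 19505 gene symbols measured, in liver and white fat of mice whose fathers were lean or obese. The genes were chosen by name for their place in insulin signalling and glucose uptake (Insr, Irs1, Irs2, Akt2, Slc2a4, Pde3b, Grb14, Tbc1d4 and Trarg1), and Fam13a was added because its F1 and CT values differed in opposite directions in the 2 tissues. Each of the 10 had 1 probe set. For Fam13a all differences between these groups are therefore descriptions with no test.

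The animals were male C57BL/6J mice, an inbred laboratory strain, sampled at 14 weeks of age. CT stands for offspring of control fathers and F1 for offspring of fathers made obese by a high-fat diet with 45% lipids, eaten for 12 weeks from the age of 8 weeks. All mothers were control females, and the labels name no diet, allele or agent given to the offspring themselves. Liver and eWAT, the labels' short name for the fat depot, each gave 4 CT and 4 F1 libraries on Affymetrix arrays. Values are on the log2 scale, so a difference of 1 is a doubling of signal. No label says which father or litter a library came from, and the p-values measure only the spread between libraries.

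Insulin acts through a receptor tyrosine kinase that phosphorylates docking proteins of the IRS family. These recruit phosphoinositide 3-kinase, and the lipid it makes activates AKT. In fat cells AKT2 phosphorylates TBC1D4, which releases vesicles that carry the glucose transporter GLUT4 to the cell surface. It also acts through phosphodiesterase 3B to lower cyclic AMP and so restrain lipolysis. In liver the same branch lowers glucose output and favours lipid synthesis, and uptake of glucose there does not depend on GLUT4. The human counterpart of Fam13a lies at a locus linked in population studies to fat distribution and insulin resistance, and in fat cells the protein has been tied to the stability of IRS1.

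RefSeq promoter sequences (assembly GRCm38.p6, from 250 bases before to 50 after each start) were at hand for 6 of the 10 genes: Irs1, Irs2, Akt2, Grb14, Tbc1d4 and Fam13a. Insr, Slc2a4, Pde3b and Trarg1 had no entry in that table. The Irs1 and Irs2 promoters are shown because both docking protein transcripts had a lower mean in F1 liver and both promoters hold the same pair of short motifs. Capitals mark the E-box CACGTG, the palindrome read by bHLH factors, and TGTTTTG, a form of the insulin response element. The 60 bases shown for Irs1 lie at chr1:82291515-82291574 on the minus strand and run from 135 to 76 bases before the start. Those for Irs2 lie at chr8:11008934-11008993 on the minus strand and run from 64 to 5 bases before the start.
Irs1: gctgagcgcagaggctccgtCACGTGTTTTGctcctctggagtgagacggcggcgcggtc
Irs2: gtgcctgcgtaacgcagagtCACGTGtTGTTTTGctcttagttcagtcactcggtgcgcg
In Irs1 the E-box and the element share 2 bases, and in Irs2 1 base lies between them. Among 32817 RefSeq promoters of the same length, searched on both strands, an E-box was in 7.15% and TGTTTTG or TATTTTG in 10.2%. An E-box followed by TGTTTTG, overlapping it or with at most 10 bases between, was in 12 promoters of 10 genes, or 0.0366%. Irs1, Irs2 and a further family member, Irs4, were among those 10 genes. The order and spacing searched for were set after the Irs1 and Irs2 sequences were seen, so both had to match. The share is therefore no test of a link to the liver values. A match is a description of the letters and not a measured binding site.

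The promoter of Fam13a is shown because this gene, of the 10, differed most between the groups in eWAT. The 100 bases up to the start lie at chr6:59024503-59024602 on the minus strand. Capitals mark ATTGG, which is a CCAAT box on the other strand, and AGGTCA, a core motif of nuclear receptors.
Fam13a: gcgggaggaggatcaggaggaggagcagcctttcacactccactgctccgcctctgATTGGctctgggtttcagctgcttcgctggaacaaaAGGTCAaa
AGGTCA was in 16.3% and CCAAT in 37.4% of the 32817 promoters, on either strand.

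Tissue identity followed the labels. The median of the adipocyte markers was 17.30 to 17.87 in eWAT and 3.98 to 4.93 in liver, and the median of the hepatocyte markers was 19.79 to 19.92 in liver. Transcripts of other tissues varied between libraries. Hepatocyte markers had a median of 7.41 to 14.44 in the 4 eWAT CT libraries and 11.60 to 15.72 in the 4 eWAT F1 libraries. Skeletal muscle markers reached 4.85 and 4.75 in liver F1 1 and 2, against 3.70 to 3.90 in CT liver. These values are low, since the median of all probe sets in liver was 5.21 to 5.24. Of 6 muscle markers tested in liver, 5 had a higher and 1 a lower mean in F1. Libraries called muscle-bearing or said to have muscle transcripts are named for this marker median alone. Exocrine pancreas markers reached 12.13 in liver F1 4, against 3.78 to 5.22 in CT liver. Epididymal markers stayed between 3.03 and 4.12 in all 16 libraries.

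Of the 9 members chosen by name, 0 passed the test of F1 against CT across all genes in either tissue, and Fam13a was not tested. In liver, limma tested 8 of the 9 other members, called 0 of them at an adjusted p under 0.05, and found 1, Irs1, at an unadjusted p under 0.05. The background was 0.156% of 14772 genes called, and 9.12% at the unadjusted threshold. Trarg1 lay below the filter on low values in liver and was not tested there. In eWAT, 9 of 9 were tested, with 0 called and 0 at an unadjusted p under 0.05. The background there was 0% of 14775 genes called and 10% at the unadjusted threshold. The means were higher in F1 for 4 of 8 members in liver, where 50% of all tested genes were higher. In eWAT they were higher for 8 of 9, where 49.7% of all tested genes were higher.

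**Figure D1:**
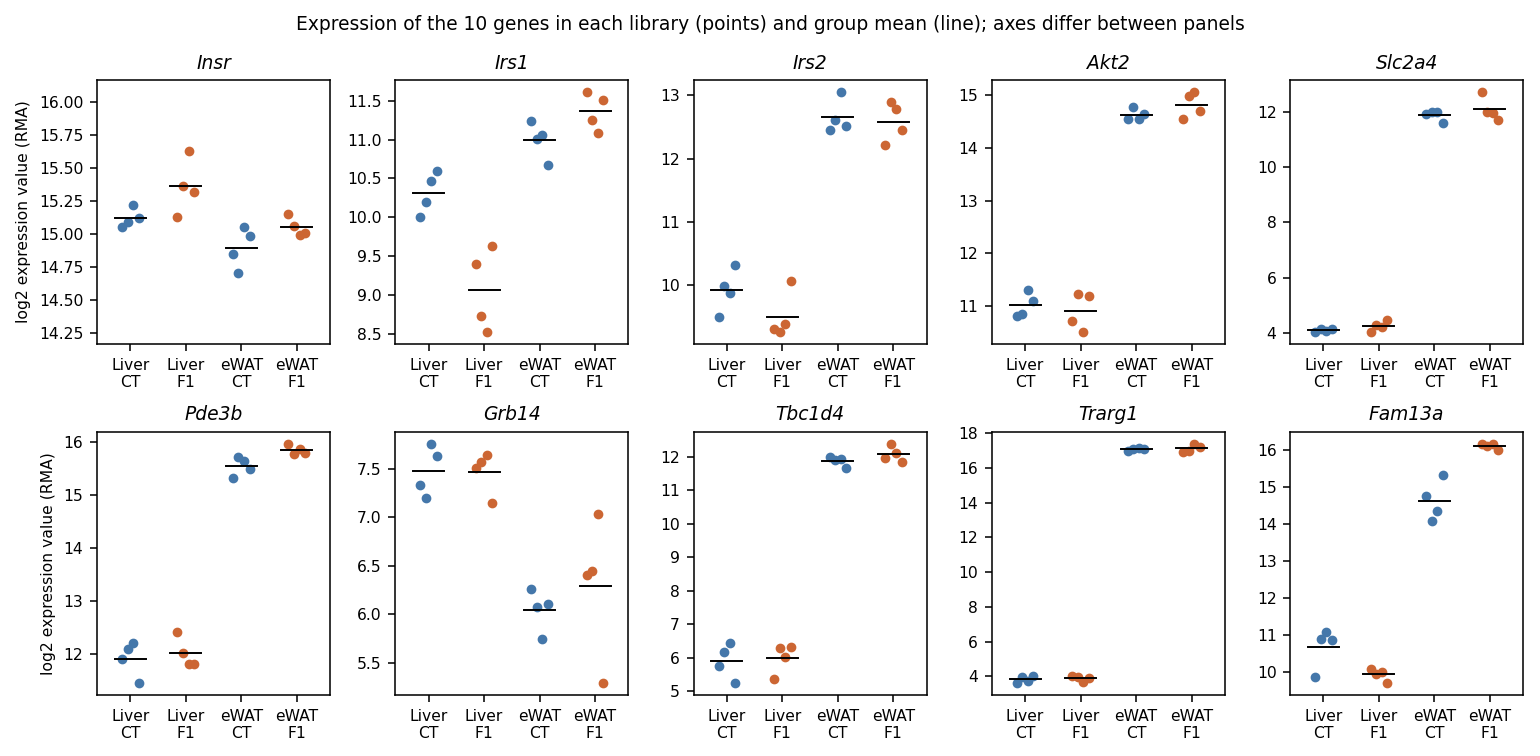
Log2 expression of each of the 10 genes in each of the 16 libraries, with CT and F1 in liver and in eWAT side by side; a point is a library and a line is the mean of 4. Irs1 in liver and Fam13a and Pde3b in eWAT are the cases with no overlap between CT and F1.

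Irs1, a docking protein that couples the receptor to phosphoinositide 3-kinase, was the member that stood furthest apart in liver among those not chosen for it. In liver the 4 CT libraries read 10, 10.19, 10.47 and 10.60, and the 4 F1 libraries read 9.39, 8.72, 8.52 and 9.63. Every F1 value lay below every CT value, with 0.37 between the nearest, and 2.68% of all tested genes were lower in this way. The mean was 10.31 ± 0.27 in CT and 9.06 ± 0.53 in F1 (SD, n = 4 each), a difference of -1.25 (SE 0.26, 95% interval -1.83 to -0.67), or 2.38-fold. It did not pass the test across all genes (limma, adjusted p = 0.145). It was called with a trended, robust variance (adjusted p = 0.0408) and with the variance shared over all 16 libraries (adjusted p = 0.0239), and over all alternatives the difference ran from -1.44 to -1.07 with adjusted p from 0.0239 to 0.375. Without the 2 F1 libraries with muscle transcripts it was -1.24 (adjusted p = 0.375). Whole tissue was measured, so a smaller share of cells that express a gene and less of its RNA per cell cannot be told apart.

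In eWAT the Irs1 values pointed the other way. CT libraries read 11.24, 11.01, 11.06 and 10.67 and F1 libraries 11.61, 11.25, 11.09 and 11.51, so that the groups overlapped. The difference was 0.37 (SE 0.19, 95% interval -0.05 to 0.79, limma adjusted p = 0.537). The F1 effect in liver minus that in eWAT was -1.62 (SE 0.33, 95% interval -2.33 to -0.91), and this interaction had an adjusted p of 0.0902 in limma. Of the 9 members tested for it 0 were called, against a background of 0.0819% of 14657 genes. The call for Irs1 was made with a trended, robust variance (adjusted p = 0.0275) and without liver F1 4 (-1.81, adjusted p = 0.0306). Liver F1 4 was the library with pancreas transcripts, whose part in the result was not tested beyond leaving it out.

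Irs2, the other main docking protein and in liver a gene that insulin represses, had a lower mean in F1 liver with overlapping groups. Liver CT libraries read 9.50, 9.99, 9.87 and 10.32, and F1 libraries 9.30, 9.26, 9.38 and 10.06. F1 libraries 1 to 3 lay below all 4 CT values, while F1 4 exceeded 3 of them. The difference was -0.42 (SE 0.23, 95% interval -0.94 to 0.10, limma adjusted p = 0.645), and -0.20 without the 2 F1 libraries with muscle transcripts. In eWAT, CT read 12.46, 12.61, 13.05 and 12.52 and F1 12.22, 12.89, 12.79 and 12.45. There the groups covered almost the same range, with a difference of -0.07 (SE 0.21, adjusted p = 0.925 in limma).

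Insr, which encodes the receptor itself, was bright and even in both tissues. Its liver values were 15.05, 15.09, 15.22 and 15.12 in CT and 15.13, 15.36, 15.63 and 15.32 in F1. In eWAT they were 14.85, 14.70, 15.05 and 14.98 in CT and 15.15, 15.06, 14.99 and 15.01 in F1. Groups overlapped in both tissues. The difference was 0.24 in liver (95% interval -0.10 to 0.58, adjusted p = 0.688) and 0.16 in eWAT (95% interval -0.17 to 0.48, adjusted p = 0.730), both by limma.

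Grb14, an adaptor that binds the active receptor and inhibits its kinase, had almost equal means in liver. CT libraries there read 7.33, 7.20, 7.76 and 7.63 and F1 libraries 7.51, 7.57, 7.64 and 7.15, a difference of -0.01 (95% interval -0.42 to 0.39). In eWAT, CT read 6.26, 6.08, 5.75 and 6.11, and F1 6.41, 6.45, 7.03 and 5.29. The eWAT F1 libraries included both the highest and the lowest value of the 8, and the difference of 0.25 had a 95% interval of -0.50 to 0.99. Adjusted p was 0.993 in liver and 0.820 in eWAT (limma).

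Akt2, the AKT kinase isoform that carries the glucose response of fat and liver, overlapped between the groups in both tissues. Liver read 10.82, 10.86, 11.30 and 11.09 in CT and 10.72, 11.24, 10.51 and 11.19 in F1. In eWAT it read 14.55, 14.78, 14.56 and 14.64 in CT and 14.55, 14.98, 15.06 and 14.70 in F1. The difference was -0.10 in liver (95% interval -0.56 to 0.36, adjusted p = 0.928) and 0.19 in eWAT (95% interval -0.18 to 0.56, adjusted p = 0.716), by limma.

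The GLUT4 arm was measured by its transporter, Slc2a4, by the Rab GTPase-activating AKT substrate Tbc1d4, and by Trarg1, a membrane protein of GLUT4 vesicles in fat cells. Slc2a4 in eWAT read 11.94, 12.00, 12.01 and 11.59 in CT and 12.72, 12.00, 11.95 and 11.73 in F1. Only F1 1 stood above the CT range, and the difference was 0.21 (SE 0.23, 95% interval -0.30 to 0.73, limma adjusted p = 0.765). Tbc1d4 in eWAT read 11.99, 11.91, 11.92 and 11.65 in CT and 11.96, 12.39, 12.11 and 11.85 in F1, a difference of 0.21 (SE 0.17, 95% interval -0.17 to 0.59, limma adjusted p = 0.697). F1 2 and 3 exceeded all CT values and the other 2 did not. Trarg1 in eWAT read 17.01, 17.08, 17.18 and 17.11 in CT and 16.93, 16.98, 17.41 and 17.21 in F1. Its means differed by 0.04 (SE 0.16, 95% interval -0.32 to 0.39, limma adjusted p = 0.953), with F1 values on both sides of the CT range.

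In liver these 3 genes were dim. Slc2a4 lay between 4.03 and 4.46 and Trarg1 between 3.59 and 4.03 over the 8 libraries, close to the 25th percentile of all probe sets, which was 3.88 to 3.92. Tbc1d4 lay between 5.23 and 6.45, with overlapping groups. The liver difference was 0.15 for Slc2a4 (adjusted p = 0.809) and 0.11 for Tbc1d4 (adjusted p = 0.952, both limma). Skeletal muscle also makes Slc2a4 and Tbc1d4. In eWAT the median of the muscle markers was 4 to 5.66 in CT and 3.48 to 4.22 in F1. All of these lay below the median of all probe sets there, 6.34 to 6.56. The part of muscle in the values of both genes was not tested.

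Pde3b, the phosphodiesterase through which insulin restrains lipolysis, was the member whose groups did not overlap in eWAT apart from Fam13a. CT libraries read 15.32, 15.71, 15.65 and 15.50, and F1 libraries 15.97, 15.77, 15.86 and 15.80. All 4 F1 values were above all 4 CT values, with 0.06 between the nearest, and 2.91% of all tested genes were higher in this way. The difference was 0.30 (SE 0.15, 95% interval -0.03 to 0.64, or 1.24-fold) and did not pass (limma, adjusted p = 0.530). It was 0.17 without eWAT CT 1 and 4, the CT libraries with most muscle transcripts. In liver the groups overlapped, at 11.90, 12.10, 12.21 and 11.45 in CT and 12.42, 12.03, 11.81 and 11.82 in F1, a difference of 0.11 (95% interval -0.37 to 0.58, limma adjusted p = 0.928).

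**Figure D2:**
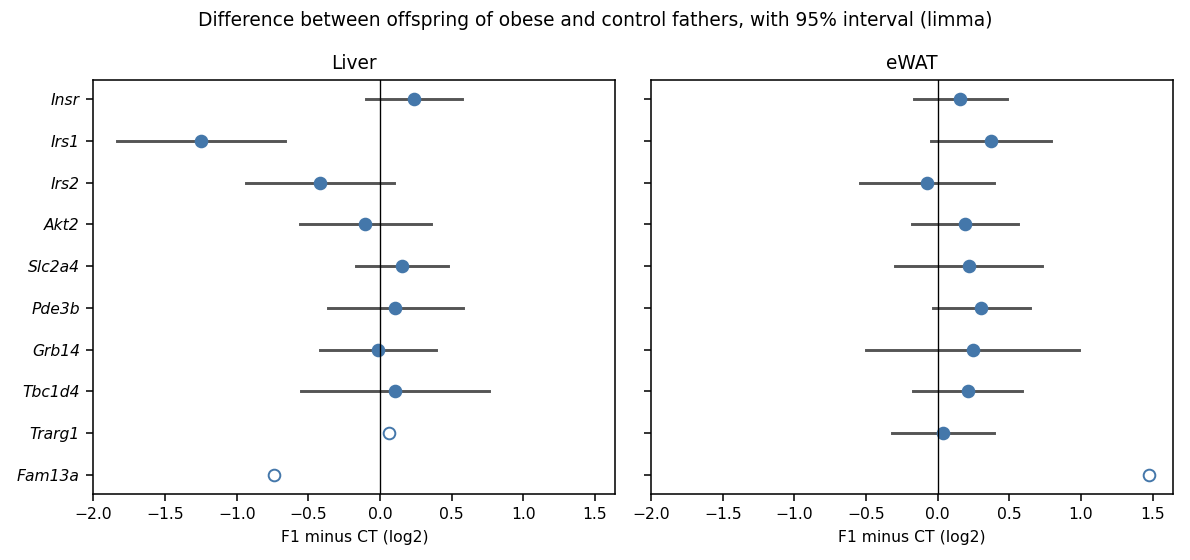
F1 minus CT (log2) for the 10 genes in liver and in eWAT; filled points carry the 95% interval of the limma fit, and open circles, with no interval, mark Fam13a, which was chosen on this difference, and Trarg1 in liver, which lay below the filter. Of the filled points, the interval of Irs1 in liver alone leaves out 0.

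Fam13a was chosen for the pattern that follows. In eWAT the CT libraries read 14.74, 14.08, 14.35 and 15.32 and the F1 libraries 16.16, 16.10, 16.15 and 15.99. The 4 F1 values lay within 0.17 of each other and above every CT value, while the CT values spread over 1.24. Means were 14.62 ± 0.54 in CT and 16.10 ± 0.08 in F1 (SD, n = 4 each), which is 1.48 higher in F1, or 2.78-fold. In liver CT read 9.86, 10.89, 11.08 and 10.88 and F1 10.10, 9.95, 10.01 and 9.70. All 4 F1 values lay below 3 of the CT values, and CT 1 lay within the F1 range. Liver means were 10.68 ± 0.55 in CT and 9.94 ± 0.17 in F1, a difference of -0.74, or 1.67-fold.

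Leaving out libraries moved the size of the Fam13a difference and not its direction. The gene was chosen on these same libraries, so this is a description and no support for the direction. In liver it ran from -1.01 to -0.60 when 1 library was left out, and in eWAT from 1.30 to 1.71. Without eWAT CT 1 and 4, the CT libraries with most muscle transcripts, the eWAT difference was 1.89, and without CT 1 and 2, those with least hepatocyte transcripts, it was 1.26. The adipocyte markers had a median of 17.30 to 17.87 in CT and 17.41 to 17.71 in F1 eWAT, and the macrophage markers 12.28 to 12.85 in CT and 11.59 to 12.82 in F1. Gene by gene, 6 of 9 adipocyte markers had a higher and 3 a lower mean in F1, with a median difference of 0.055. Of 8 macrophage markers tested, 1 was higher and 7 lower, with a median difference of -0.70, where 49.7% of all tested genes were higher. Stromal and mesothelial markers had a median of 10.92 to 12.70 in CT and 12.33 to 13.30 in F1, which is the range of Lrrn4 alone. Gene by gene, 4 of 9 had a higher and 5 a lower mean in F1, with a median difference of -0.08. Endothelial markers had a median of 11.18 to 11.53 in CT and 10.82 to 11.11 in F1, which is the range of Tek alone. Of 9 tested, 3 were higher and 6 lower, with a median difference of -0.175. The part of these cell types in the Fam13a difference was not tested.

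The relatives of Fam13a overlapped between F1 and CT in eWAT. Fam13b in eWAT read 10.53, 10.10, 9.37 and 10.14 in CT and 9.91, 9.92, 9.95 and 9.94 in F1, a difference of -0.10 (limma adjusted p = 0.899). Its liver difference was 0.26 (adjusted p = 0.867). Fam13c in eWAT differed by -0.44 (limma adjusted p = 0.721) and lay below the filter in liver. Whether either differed from Fam13a was not tested.

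The 5 genes with the pattern most like Fam13a were found by the root mean square distance over the 16 libraries, after each of 13479 genes was centred on its mean in each tissue. Plin5, a lipid droplet protein of oxidative tissues, came first with a distance of 0.413, against a spread of 0.678 of Fam13a about its own means. Acsm5 (0.445), the histone gene H4c3 (0.446), the acyl-CoA thioesterase Acot2 (0.455) and Fbxl12os (0.455) followed. All 5 had a lower mean in F1 liver and a higher mean in F1 eWAT, which likeness to Fam13a itself brings about. Plin5 differed by -0.51 in liver and 0.83 in eWAT, and Acot2 by -0.48 and 0.69.

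Levels in the 2 tissues were compared within each paternal group for the 9 members chosen by name, and Fam13a is described beside them. In CT, 8 of 9 differed between the tissues by limma, 7 lower in liver and 1 higher. Of 14697 genes 75.4% did so too, 57.5% lower and 17.9% higher. In F1 it was again 8 of 9, with 7 lower and 1 higher, and the background was 75.8%, with 57.8% lower and 18% higher. The median of all tested genes was -0.84 in CT and -0.85 in F1 (liver minus eWAT). Whether separate scaling of the tissues set this shift was not tested. It moved to 0.00 and 0.01 with quantile normalization over both tissues and to 0.22 and 0.24 with median centring. The share of calls higher in liver was 23.7% in CT as deposited, 48.7% after quantile normalization and 57.0% after median centring, and 23.8%, 48.8% and 57.9% in F1.

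The GLUT4 arm had wide gaps. Trarg1 was lower in CT liver by a difference of -13.27 (SE 0.16, limma adjusted p = 3.23e-12), Slc2a4 by -7.79 (SE 0.16, adjusted p = 4.78e-11) and Tbc1d4 by -5.97 (SE 0.25, adjusted p = 5.51e-09). Since Trarg1 and Slc2a4 lay near the low end of the array in liver, the sizes of their differences are uncertain, and they also depend on the scaling. Under the alternatives the CT difference ran from -14.01 to -12.05 for Trarg1 and from -7.89 to -6.57 for Slc2a4. Pde3b stood at -3.63, Akt2 at -3.62 and Irs2 at -2.74. Each of these 6 kept its direction and its call under quantile normalization and median centring, in CT and in F1. Fam13a, with no test, was lower in liver by a difference of -3.95 in CT and -6.16 in F1, and lower under both other scalings too.

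Grb14 was the member that was higher in liver, by 1.43 in CT (SE 0.19, limma adjusted p = 4.45e-05) and 1.17 in F1 (adjusted p = 0.0064), also under both other scalings. Insr was not called as deposited (0.23, limma adjusted p = 0.203 in CT), but was called higher in liver with median centring (1.44, adjusted p = 7.54e-06). Irs1 in CT was -0.68 as deposited (limma adjusted p = 0.00874) but turned to 0.32 with quantile normalization (adjusted p = 0.187) and 0.54 with median centring (adjusted p = 0.0459), so its order in CT depends on the scaling. In F1, Irs1 was lower in liver under all 3, at -2.30, -1.24 and -1.04.

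The rest of the pathway was taken from 10 lists, which hold 131 measured genes besides the members. The lists were chosen with earlier results of these data known. Their shares beside the background are therefore descriptions and not independent evidence. In liver 124 of them were tested and limma called 0. At an unadjusted p under 0.05 there were 26, or 21%, with 9 higher and 17 lower in F1, where the background was 9.12%. In eWAT 129 were tested, 0 were called and 9 had an unadjusted p under 0.05, or 7%, where the background was 10%. Genes named from here on had the smallest p of their list and did not pass the test.

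Steps between the receptor and AKT were spread about 0. The list of the receptor and docking proteins had 7 higher and 6 lower means among 13 tested in liver and a median difference of 0.01, beside 0.00 for all genes. In eWAT it had 6 higher and 7 lower, and Cbl, a ubiquitin ligase, had the smallest p (-0.41, adjusted p = 0.412). Of 23 genes of the phosphoinositide 3-kinase and AKT branch, 11 were higher and 12 lower in liver, with a median of -0.02. Akt1, the sister kinase of Akt2, was 0.49 higher in F1 liver (SE 0.16, adjusted p = 0.388), and Gsk3a, a kinase that AKT inhibits, differed by -0.48 (adjusted p = 0.456), both by limma and both with no overlap between the groups, which 2.68% of all genes showed in the higher and 2.68% in the lower direction. In eWAT 14 were higher and 9 lower, with a median of 0.10.

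Restraints on the pathway, which include phosphatases, adaptors and pseudokinases, had 8 higher and 12 lower means among 20 in liver. Trib1, a pseudokinase, read 9.47, 8.45, 8.02 and 8.16 in CT and 9.67, 10.13, 10.74 and 9.85 in F1 liver. The groups did not overlap, and the difference of 1.57 (SE 0.34) had an adjusted p of 0.152 in limma. Socs3, a feedback inhibitor of cytokine and insulin signalling, was 1.33 higher (adjusted p = 0.455), but 0.78 without F1 2, which read 7.60, and 0.65 without both F1 libraries with muscle transcripts. Its nearest CT and F1 values were 5.02 and 5.04. Grb10, the close relative of Grb14, was -0.61 (adjusted p = 0.427, limma), with separate groups. In eWAT 12 of 21 were higher and 9 lower, with Pik3ip1, an inhibitor of phosphoinositide 3-kinase, at 0.67 (adjusted p = 0.412), and at 0.32 without CT 1 and 2, which had least hepatocyte transcripts. Prkcd, a protein kinase C isoform on the same list, stood at -0.61 (adjusted p = 0.412, limma).

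Genes around glucose uptake had means on both sides of 0 in each tissue. Of 27 genes of GLUT4 vesicle traffic tested in liver, 17 were higher and 10 lower with a median of 0.03. Vamp2, the vesicle SNARE of GLUT4 storage vesicles, was at -0.53 (SE 0.15, limma adjusted p = 0.292) with separate groups. In eWAT it was 14 and 14 with a median of -0.01, and Stxbp3, which binds the partner SNARE at the plasma membrane, stood at -0.44 in eWAT and in liver (adjusted p = 0.470 and 0.488, limma). Glucose transporters were higher for 5 of 8 in liver and for 9 of 11 in eWAT, with medians of 0.07 and 0.21. In eWAT, glucose phosphorylation and glycogen genes were higher for 10 of 14, with a median of 0.18. Hk2, the insulin-responsive hexokinase, read 10.57, 10.79, 11.07 and 11.27 in CT and 12.01, 11.50, 11.88 and 11.27 in F1 eWAT, a difference of 0.74 (SE 0.22, limma adjusted p = 0.389). The same list in liver was lower for 10 of 14, with a median of -0.27.

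Ppp1r3c, a glycogen-targeting phosphatase subunit, had means that differed in opposite directions in the tissues. It read 12.84, 12.47, 12.99 and 11.98 in CT and 10.84, 11.39, 11.42 and 12.36 in F1 liver, a difference of -1.07 (limma adjusted p = 0.340), and -0.68 without the 2 F1 libraries with muscle transcripts. In eWAT it was 0.98 higher in F1 (limma adjusted p = 0.468), and 0.39 higher without CT 1 and 2, which had least hepatocyte transcripts. The groups overlapped in both tissues, and the part of foreign transcripts was not tested. The phosphodiesterase and lipolysis list was higher in F1 for 8 of 10 in liver, with a median of 0.16. Its leading gene was the triglyceride lipase Pnpla2, at 10.41, 10.29, 10.61 and 10.70 in CT and 11.01, 10.90, 11.50 and 11.25 in F1 liver (difference 0.66, SE 0.18, limma adjusted p = 0.267). In eWAT the same list was higher for 6 of 10, with a median of 0.04.

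**Figure D3:**
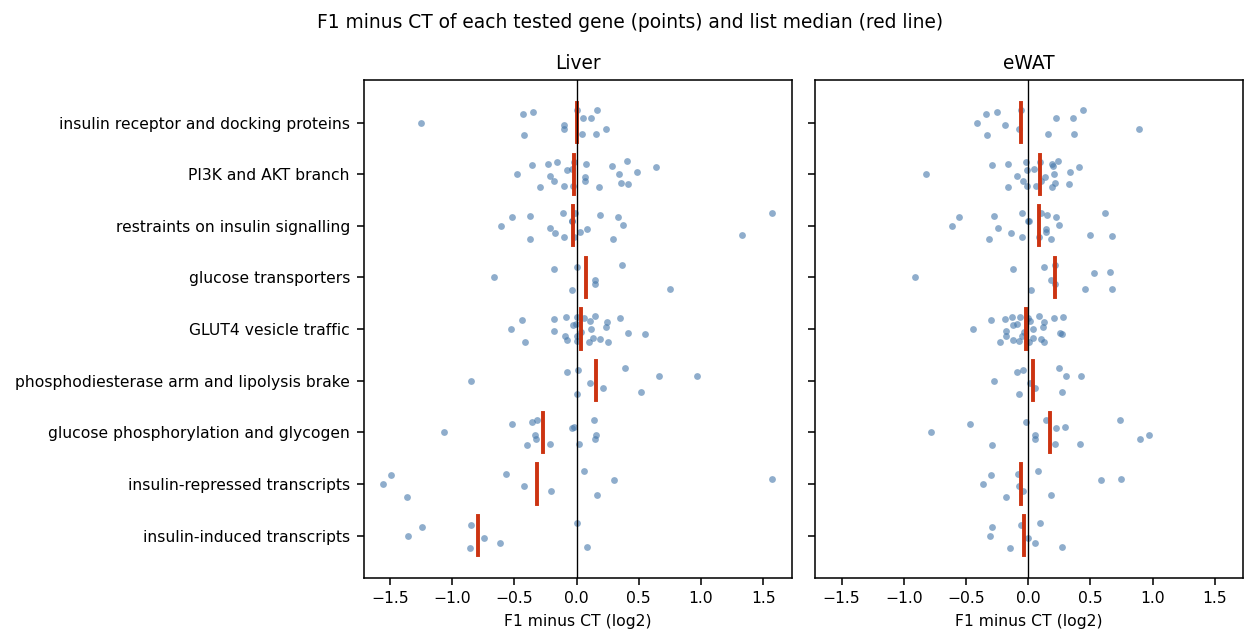
F1 minus CT (log2) of each tested gene in 9 lists of the insulin pathway, in liver and in eWAT; a point is a gene and the red line is the list's median. The insulin-induced transcripts have a median of -0.79 in liver and -0.03 in eWAT.

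Transcripts that insulin is known to induce or repress in liver were read as 2 further lists. Of 8 induced transcripts, 2 had a higher and 6 a lower mean in F1 liver, with a median of -0.79, beside 0.00 for all genes. The median was -0.50 without the 2 F1 libraries with muscle transcripts. Limma called 0 of them and 5 had an unadjusted p under 0.05, all lower, where 4.66% of all genes were lower at that threshold. Both lists were chosen with earlier results of these data known, so such counts are descriptions. Me1, malic enzyme, which supplies NADPH for lipid synthesis, read 15.36, 15.29, 14.92 and 15.06 in CT and 13.79, 13.28, 14.32 and 14.27 in F1. The groups were separate and the difference of -1.24 (SE 0.24) had an adjusted p of 0.108 in limma. The adjusted p became 0.00947 with a trended, robust variance, and reached 0.307 among the other alternatives. The Me1 difference was -0.86 without the 2 F1 libraries with muscle transcripts. Fasn, fatty acid synthase, differed by -1.36 (SE 0.36, adjusted p = 0.256; -0.88 without the muscle-bearing libraries) and Pnpla3, a lipid droplet protein, by -0.86 (adjusted p = 0.374), both limma.

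Of 10 transcripts that insulin represses, 4 were higher and 6 lower in F1 liver, with a median of -0.31, 0 called by limma and 4 at an unadjusted p under 0.05 (background 9.12%). That median was -0.53 without CT 1, -0.20 without CT 2 or CT 4, and -0.17 without the 2 F1 libraries with muscle transcripts. Igfbp1, a secreted binding protein for insulin-like growth factors, read 14.54, 14.47, 13.35 and 14.05 in CT and 12.21, 12.04, 13.76 and 12.43 in F1, a difference of -1.49 (limma adjusted p = 0.254). Pdk4, the kinase that shuts off pyruvate dehydrogenase, read 7.66, 8.09, 8.23 and 8.78 in CT and 6.79, 6.25, 7.53 and 6.75 in F1, and its groups were separate (-1.36, limma adjusted p = 0.162). Without the 2 F1 libraries with muscle transcripts the difference was -1.01 for Igfbp1 and -1.05 for Pdk4. Trib1, on this list too, had the opposite sign. In eWAT the medians were -0.03 for the induced and -0.06 for the repressed transcripts, with 0 of 8 and 1 of 10 at an unadjusted p under 0.05, where the background was 10%, and 0 called by limma.

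**Figure D4:**
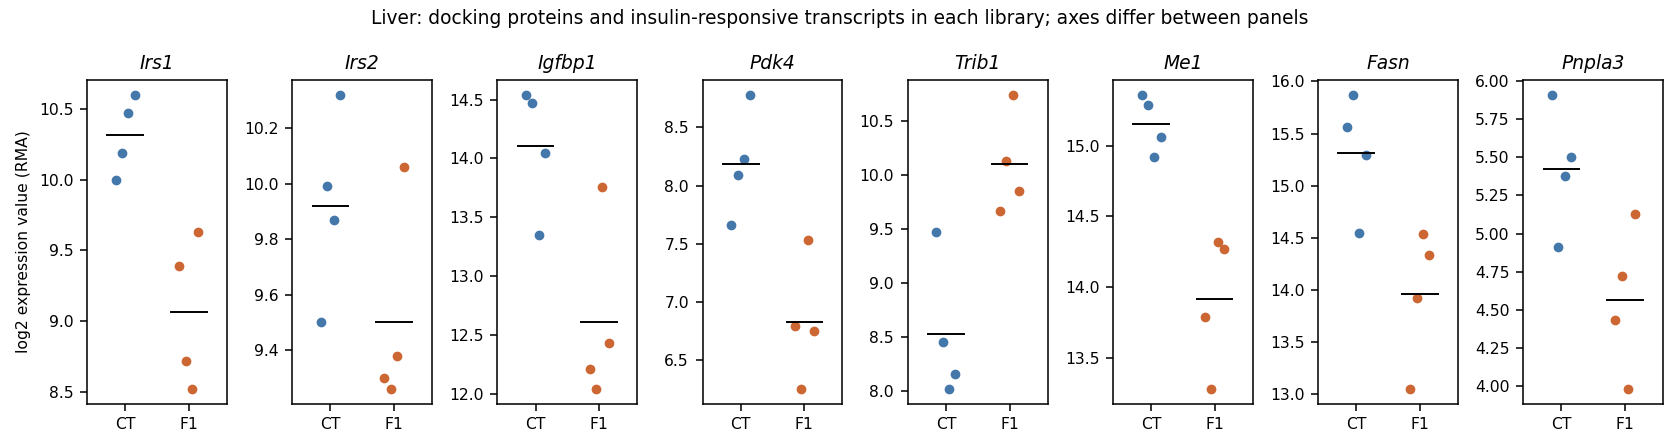
Log2 expression in the 8 liver libraries of Irs1, Irs2 and 6 transcripts that respond to insulin; points are libraries, lines are means of 4, and the axes differ between panels. Irs1, Pdk4, Me1 and Fasn are lower in every F1 library than in every CT library, and Trib1 is higher. The nearest Fasn values are almost equal, at 14.55 in CT 3 and 14.54 in F1 3. Of all tested genes, 2.68% were lower in this way and 2.68% higher. The 6 transcripts beside Irs1 and Irs2 were named for the smallest p of their lists.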

How the data were processed

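The deposited table holds log2 expression values of 22206 probe sets in 16 libraries, made by the authors with the RMA method of Transcriptome Analysis Console 4.0 per the submitters' own notes on processing. The genome build is not given in the sources used here. The median library value lay at 5.21 to 5.24 for liver but 6.34 to 6.56 for eWAT, so the tissues seem to have been normalized separately. Arrays have no read depth, and their number limits the precision.

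Probe sets were named through the platform annotation (19572 with 1 symbol, 0 with several, 2634 with none), and where a symbol had several probe sets (55 cases) the brightest stood for it. Comparisons were fitted with limma 3.58.1 in R 4.3.3 (lmFit, eBayes) over the 8 libraries concerned, or 16 for the interaction. Genes with a mean below the 25th percentile of those libraries were left out, and p-values were adjusted over all genes (Benjamini-Hochberg, called under 0.05). The fit was tested on simulated data.

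The members and lists were chosen with earlier results of these data known. All members are named, and of each pathway list up to 3 genes per tissue with the smallest p under 0.05. The likeness measure was run for Fam13a, Slc2a4 and Irs2. Motifs and sequence windows, and the pairs of libraries left out together, were chosen after the sequences and values were seen. Alternatives were quantile normalization and median centring, other filters, a trended and robust variance, 1 fit of all libraries, a replicate block and leaving out each library.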

Additional observations from a re-analysis of the deposited data

Results flagged for a closer look

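Among 100 groups of 4 libraries looked at, 6 held a value far from the other 3, where chance gives about 1 in 20, or 5. In liver these were Irs2 in F1 4 (10.06), Fam13a in CT 1 (9.86), the CT value that overlaps with F1, and Vamp2 in CT 1 (10). In eWAT they were Slc2a4 in CT 4 (11.59), Pik3cd, a catalytic subunit of phosphoinositide 3-kinase rich in leukocytes, in F1 1 (6.46), and Pik3ip1 in F1 4 (8.27).

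Fam13a differed in opposite directions in liver and eWAT, by -2.22 on the log2 scale for the liver effect minus the eWAT effect. The gene was chosen for this, so the difference was not tested.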

How the results depend on the processing

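Of 1649 values of single genes and list medians under an alternative, 1622 kept their direction and their side of the threshold, or moved by less than the replicate spread. Those that turned sign lay near 0 as reported, apart from Irs1 between the tissues in CT (0.32 with quantile normalization, 0.54 with median centring). With 1 library left out, liver differences ran from -0.21 to 0.033 for Akt2, -0.05 to 0.20 for Pde3b, -0.11 to 0.093 for Grb14 and -0.12 to 0.32 for Tbc1d4, and eWAT differences from -0.17 to 0.058 for Irs2 and -0.055 to 0.11 for Trarg1. Pde3b in liver was -0.10 without the muscle-bearing F1 libraries 1 and 2, and Trarg1 in eWAT was -0.013 without CT 1 and 2, which had least hepatocyte transcripts.

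Counts over all genes moved more. In liver 23 genes were called between F1 and CT, but 74 with a trended, robust variance, 51 with all 16 libraries in 1 fit, 9 without the muscle-bearing libraries, and 7 to 24 with 1 library left out (7 without CT 2 or F1 3, 8 without CT 4, 10 without CT 3 or F1 2). In eWAT 0 were called, 25 with all 16 libraries in 1 fit, and 0 to 1 with 1 library left out. The interaction had 12 calls, 37 with a trended, robust variance, 5 without eWAT CT 1 and 2, and 7 to 25 with 1 library left out (7 without eWAT CT 3, 22 without liver F1 4, 25 without eWAT F1 3). Members called for F1 against CT in liver went from 0 to 1, Irs1, with a trended, robust variance and with all 16 libraries, and for the interaction from 0 to 1, Irs1, with a trended, robust variance. With 1 library left out, 0 to 1 members were called for the interaction. The cause of these changes was not tested. Trib1 in liver was called with a trended, robust variance (adjusted p = 0.0355), with all 16 libraries (0.0238) and without CT 1 (0.0458), by limma.

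The labels number replicates 1 to 4 in each group. Deviations of same-numbered CT and F1 libraries correlated at -0.06 to 0.06 in liver and -0.31 to 0.23 in eWAT. These values concern CT against F1 libraries and cannot decide whether the numbers pair liver with eWAT. In F1, all 4 liver libraries correlated best with the eWAT library of their own number, but only at 0.03 to 0.05. In CT this held for replicates 1 and 4 and not for 2 and 3, with correlations of 0.01 to 0.04. The labels do not say whether such libraries share a mouse. With the replicate number as a block, 6 genes were called in liver, 0 in eWAT and 16 for the interaction, and Irs1 in liver had an adjusted p of 0.252 in limma. In the simulated data, limma called 47.5% of genes changed by 1 on the log2 scale in liver and 36% in eWAT. For a change of 2 it called 95.5% and 88%. With 4 libraries a group, a doubling of a single gene can therefore be missed. Smaller differences were not simulated and may be missed too. Each simulation changed 200 genes, while 23 genes were called in liver and 0 in eWAT, so these shares may not hold for the measured values. Slc2a4 and Trarg1 in liver lay near the background of the array.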

Other observations

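Patterns like those of 2 further members were read in the same way as for Fam13a. The gene nearest to Irs2 was Engase, an enzyme that trims sugar chains of glycoproteins, at a root mean square distance of 0.167 over the 16 libraries. The gene nearest to Slc2a4 was D5Ertd579e, at 0.112.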
